A study of Homo sapiens with 6 samples.

Results

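Expression of 10 genes of the Hippo pathway was read from RNA-seq libraries made after N6AMT1 knockdown. The genes were listed by name and found in the deposited table by their Ensembl identifiers, and all 10 are among the 62438 genes it holds. They are the kinases STK3, STK4, LATS1 and LATS2, the adaptors SAV1 and MOB1A, the coactivators YAP1 and WWTR1, and the target genes CCN1 and CCN2. The cells carry the label MDA-MB-453, an established line from a human breast carcinoma. For 48 h they had received 10 nM siRNA, directed against N6AMT1 in 3 libraries (si-N6AMT1) and scrambled in the 3 control libraries (si-CN). Both groups received Lipofectamine RNAiMAX and were otherwise handled alike according to the labels. The paper does not say how many different siRNAs against N6AMT1 were used, and no siRNA sequence is given in the sources used here.

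The Hippo pathway restrains growth through a chain of kinases. STK3 and STK4 (also called MST2 and MST1), held by the scaffold SAV1, activate LATS1 and LATS2 with the help of MOB1 proteins, and the LATS kinases phosphorylate YAP1 and WWTR1 (TAZ). Phosphorylated YAP1 and WWTR1 stay in the cytoplasm or are degraded, whereas unphosphorylated forms enter the nucleus and, with TEAD factors, drive genes such as CCN1 (CYR61) and CCN2 (CTGF). Since much of this control acts on proteins, mRNA levels report the supply of the components and the output at the target genes, not the activity of the kinases. LATS2 itself is a known target of YAP1, which makes it part of a feedback loop.

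Libraries held 19739247 to 21289740 counts. N6AMT1, the targeted gene, had 60 to 72 counts in si-N6AMT1 and 135 to 141 counts in si-CN libraries (log2 fold change -1.10, standard error 0.119). Of the luminal markers that define MDA-MB-453, SPDEF had 1 to 6 counts per library. The basal keratins KRT5 and KRT14, in TPM (a level per transcript length), stood at 763.5 and 150.4 (mean of si-CN), beside 748.0 TPM for KRT8 and 725.6 TPM for KRT18. SPDEF near 0 and the high KRT5 and KRT14 go against the label in all 6 libraries, so the cells are called here by their label only. Summed over the list of luminal markers, the level was 1590 to 1620 TPM in si-CN and 1700 to 1710 TPM in si-N6AMT1 libraries. Summed over 10 markers of basal and other cells or of hormone receptor expression it was 924 to 944 TPM and 1000 to 1020 TPM, nearly all of it from KRT5 and KRT14. The leukocyte markers PTPRC and CD3E were at or near 0, as were the estrogen and progesterone receptor genes ESR1 and PGR. Of the fibroblast markers, COL1A1 stood at 17.2 TPM in the mean of either group, whereas COL1A2 and PDGFRB were near 0. The part of these shifts in the results below was not tested. The labels say that RNA came from triplicate cells without saying whether these were separate cultures, so p-values measure the spread between these libraries, which may be technical. Beyond counting noise, libraries of a group varied by a common coefficient of variation of only 1.85%, so that small changes can reach low p-values. In bulk RNA, fewer cells that express a gene and less RNA per cell cannot be told apart.

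In si-N6AMT1 libraries, 2 of the 10 Hippo genes were lower, LATS2 by 19.5% and YAP1 by 16.5%. A further 2 were higher, CCN1 by 10.3% and SAV1 by 7.08%. The other 6 genes did not pass the test, which was edgeR's quasi-likelihood test with Benjamini-Hochberg adjustment over all 17320 genes that passed the expression filter (FDR under 0.05). All 10 genes passed this filter. The 4 calls stand against a background in which 21.3% of all genes tested were called, 11.5% lower and 9.78% higher. Among the 9661 genes whose mean CPM (counts relative to the TMM-scaled library size) lay between that of the lowest and the highest Hippo gene, 31.6% were called. Libraries of the 2 groups did not overlap for 8 of the 10 genes, against 34.9% of all genes tested. That share was not computed for the genes within the CPM range of the Hippo genes. LATS1, STK4, MOB1A and WWTR1 are among the 8 though they were not called. The median log2 fold change was 0.03 over the 10 genes and 0.00385 over all genes tested, and the 10 values ran from -0.31 to 0.14.

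**Figure D1:**
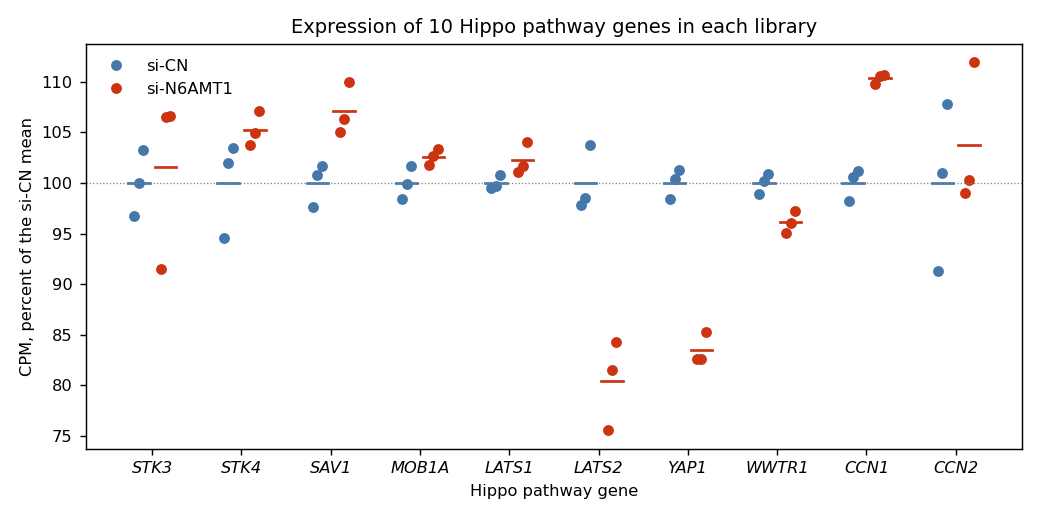
TMM-scaled CPM of each Hippo gene in each library, as a percentage of that gene's si-CN mean, with si-CN libraries in blue, si-N6AMT1 libraries in red and bars at the group means (n = 3 each). The 3 red points of LATS2 and of YAP1 lie below all blue points of the same gene, and those of CCN1 and SAV1 lie above, whereas the points of STK3 and CCN2 overlap.

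Levels per transcript length set the scale on which these changes took place. TPM was estimated by dividing counts by the length of the reference transcript. Most of these genes have several annotated transcripts (17 for STK4 and 20 for STK3), so the order of genes also depends on the transcript chosen. Ranges over libraries show the spread between replicates and not this dependence. In si-CN libraries the target gene CCN1 was the highest, at 273.5 ± 3.54 TPM (SD, n = 3), followed by YAP1 at 108.1 ± 2.86 TPM (SD, n = 3). WWTR1 (78.3 TPM), SAV1 (76.8 TPM) and MOB1A (75.7 TPM) came next, and neighbours in this order overlapped in their ranges over the 3 libraries. STK4 had 45.2 TPM and STK3 34.8 TPM, with ranges apart from each other. Both LATS kinases were lower, LATS1 with 13.9 TPM and LATS2 with 9.06 TPM. CCN2 was the lowest at 8.99 TPM, and its range overlapped that of LATS2. CCN1 and CCN2, both textbook targets of YAP1 and WWTR1, thus differed widely in level, with a CCN2/CCN1 ratio of 0.0298 to 0.035 in si-CN libraries.

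**Figure D2:**
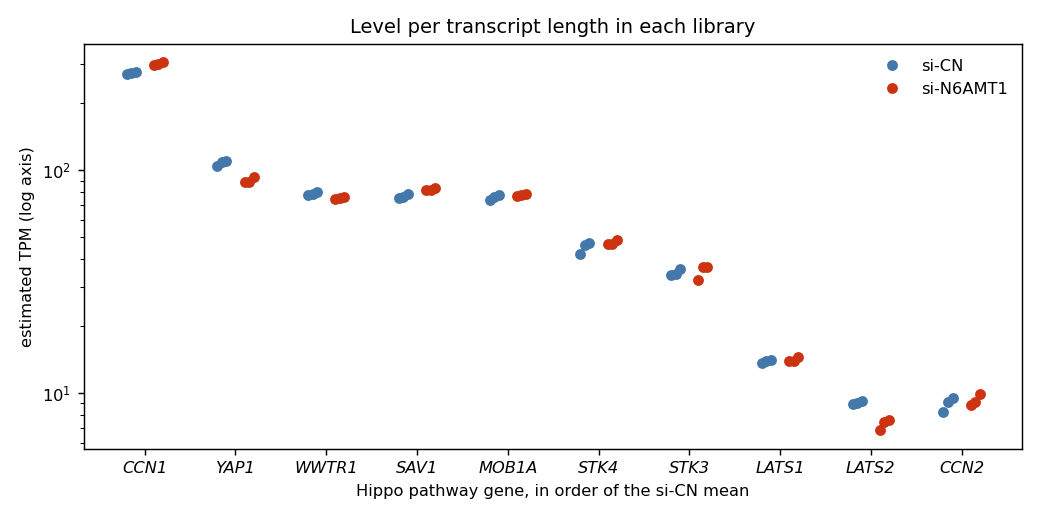
Estimated TPM of each Hippo gene in each library on a log axis, in order of the si-CN mean, with si-CN in blue and si-N6AMT1 in red. Levels run from 273.5 TPM for CCN1 to 8.99 TPM for CCN2 (si-CN means), a wider span than that between the groups for any of these genes.

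STK3 and STK4 begin the kinase chain. STK3 (ENSG00000104375, chromosome 8) had 44.4, 45.8 and 42.9 CPM in si-CN replicates 1 to 3 and 40.6, 47.3 and 47.2 CPM in si-N6AMT1 replicates 1 to 3. Its groups overlapped, since si-N6AMT1 replicate 1 was the lowest of all libraries and the other two si-N6AMT1 libraries were the highest. The log2 fold change was 0.02 (95% confidence interval -0.08 to 0.13, FDR = 0.792). STK4 (ENSG00000101109, chromosome 20) had 122.2, 133.7 and 131.7 CPM in si-CN and 138.4, 135.6 and 134.0 CPM in si-N6AMT1 libraries. Its si-N6AMT1 libraries all lay above its si-CN libraries, but 1 si-CN library was lower than the other two and the gene was not called (log2 fold change 0.07, 95% confidence interval 0.01 to 0.14, FDR = 0.0967). Without that library, si-CN replicate 1, its log2 fold change was 0.04, and without si-CN replicate 2 STK4 passed the threshold (FDR = 0.0488).

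SAV1 and MOB1A are the adaptors of the cascade. SAV1 (ENSG00000151748, chromosome 14), which joins STK3 and STK4 to the LATS kinases, had 107.6, 104.2 and 108.5 CPM in si-CN and 112.1, 117.4 and 113.5 CPM in si-N6AMT1 libraries. Every si-N6AMT1 library was above every si-CN library, and the gene was called higher (log2 fold change 0.10, standard error 0.0288, FDR = 0.0160). This call was lost without si-CN replicate 2 (FDR = 0.0925) or si-N6AMT1 replicate 2 (FDR = 0.105), and under DESeq2, fitted to all genes with a count (adjusted p = 0.120) or to the 17320 genes that edgeR tested (adjusted p = 0.0780). Exons of SAV1 share 1789 bases with ATL1 on the other strand, a gene at 21 to 41 counts per library against 2052 to 2398 for SAV1. MOB1A (ENSG00000114978, chromosome 2), which binds and activates LATS kinases, had 163.9, 169.4 and 166.5 CPM in si-CN and 171.0, 172.1 and 169.6 CPM in si-N6AMT1 libraries. Its groups lay apart by a narrow margin, and it was not called (log2 fold change 0.04, 95% confidence interval -0.01 to 0.09, FDR = 0.328).

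Of the LATS kinases, LATS2 was lower and LATS1 was not called. LATS1 (ENSG00000131023, chromosome 6) had 45.9, 46.4 and 45.8 CPM in si-CN and 47.9, 46.8 and 46.6 CPM in si-N6AMT1 libraries. The groups did not overlap, but the gap between them was narrow and the gene did not pass the test (log2 fold change 0.03, 95% confidence interval -0.05 to 0.11, FDR = 0.613). LATS2 (ENSG00000150457) occupies chr13:21547175-21635725 on the minus strand (GRCh37). It had 23.4, 22.1 and 22.2 CPM in si-CN and 18.4, 19.1 and 17.1 CPM in si-N6AMT1 libraries, from 435 to 472 and 350 to 389 counts. All 3 si-N6AMT1 libraries were below all si-CN libraries, and the log2 fold change was -0.31 (95% confidence interval -0.44 to -0.19, FDR = 0.000546). The LATS2/LATS1 ratio of counts per kilobase was 0.677, 0.632 and 0.645 in si-CN and 0.510, 0.540 and 0.486 in si-N6AMT1 libraries. This ratio does not depend on library scaling. The groups did not overlap, and the log2 difference was -0.35 with a pooled SD between replicates of 0.0646 (two-sided exact permutation test, p = 0.1, the smallest p that 3 libraries against 3 allow, adjusted p = 0.2 over 4 ratios).

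The study's own RT-qPCR assay of LATS2 uses the primer pair below, which is shown because it marks the piece of the mRNA that a second method reads. The paper names LATS2 (printed as LAST2) among cell cycle regulators that fell after N6AMT1 loss. It reports that qRT-PCR in cultured and xenograft cells bore this finding out, without a value for LATS2 in its text. Both match LATS2 exactly in exon 2 of the 8 exons of the reference transcript, at chr13:21619947-21619967 (forward, minus strand) and chr13:21619857-21619877 (reverse, plus strand) in GRCh37.
LATS2 forward primer: accccaaagttcggaccttat
LATS2 reverse primer: catttgccggttcacttctgc

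YAP1 and WWTR1 are the coactivators on which the cascade acts. YAP1 (ENSG00000137693) occupies chr11:101981178-102104155 on the plus strand (GRCh37). It had 258.1, 263.3 and 265.7 CPM in si-CN and 223.8, 216.7 and 216.7 CPM in si-N6AMT1 libraries. The gap between the groups was larger than the spread within either, and the log2 fold change was -0.26 (95% confidence interval -0.31 to -0.21, FDR = 2.60e-08). WWTR1 (ENSG00000018408, chromosome 3) had 177.7, 175.4 and 178.9 CPM in si-CN and 170.3, 172.4 and 168.6 CPM in si-N6AMT1 libraries. All si-N6AMT1 libraries were below the si-CN libraries, but by less, and WWTR1 was not called (log2 fold change -0.06, 95% confidence interval -0.11 to -0.01, FDR = 0.0972). The WWTR1/YAP1 ratio of counts per kilobase was 0.738, 0.714 and 0.722 in si-CN and 0.816, 0.853 and 0.834 in si-N6AMT1 libraries. The groups did not overlap, and the log2 difference was 0.20 with a pooled SD of 0.0284 (two-sided exact permutation test, p = 0.1, adjusted p = 0.2 over 4 ratios). Per length of the reference transcript, YAP1 was thus the more abundant of the pair in all 6 libraries. The WWTR1/YAP1 ratio was nearer to 1 in each si-N6AMT1 library than in any si-CN library.

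CCN1 and CCN2 encode secreted matricellular proteins and serve widely as readouts of YAP1 and WWTR1. CCN1 (ENSG00000142871, chromosome 1) had 283.3, 275.2 and 281.9 CPM in si-CN and 309.7, 307.5 and 309.9 CPM in si-N6AMT1 libraries. It was higher in every si-N6AMT1 library (log2 fold change 0.14, 95% confidence interval 0.10 to 0.19, FDR = 4.82e-05), in the direction opposite to YAP1. CCN2 (ENSG00000118523, chromosome 6) had 10.2, 9.55 and 8.63 CPM in si-CN and 9.48, 10.6 and 9.36 CPM in si-N6AMT1 libraries. Its groups overlapped (log2 fold change 0.06, FDR = 0.731), and at 183 to 216 counts per library its 95% confidence interval of -0.13 to 0.24 includes the rise of CCN1. The CCN2/CCN1 ratio did not separate the groups (log2 difference -0.09, two-sided exact permutation test, p = 0.3, adjusted p = 0.4), nor did the STK4/STK3 ratio (log2 difference 0.06, p = 0.7 and adjusted p = 0.7 by the same permutation test).

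**Figure D3:**
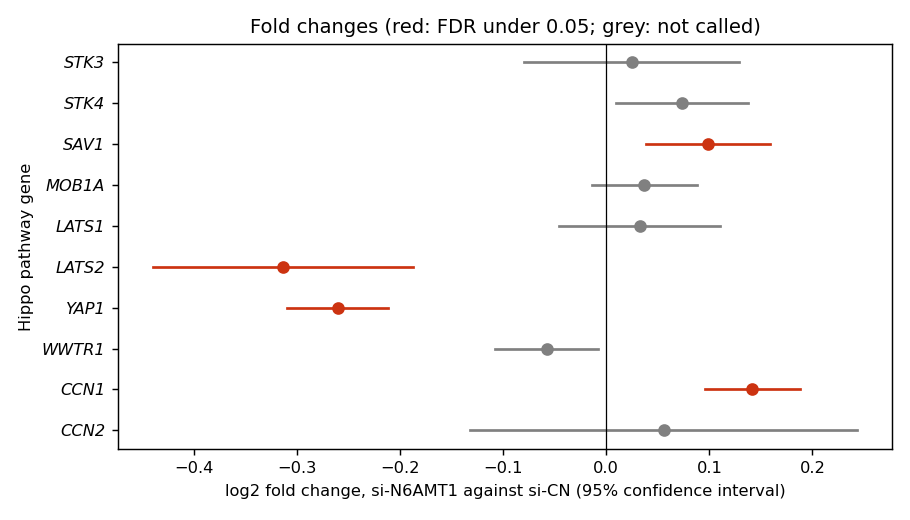
Log2 fold change of each Hippo gene in si-N6AMT1 against si-CN with its 95% confidence interval from the edgeR fit, in red where the FDR was under 0.05 and in grey otherwise. LATS2 (-0.31) and YAP1 (-0.26) lie below 0, SAV1 (0.10) and CCN1 (0.14) lie above, and the widest interval is that of CCN2 (-0.13 to 0.24).

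**Figure D4:**
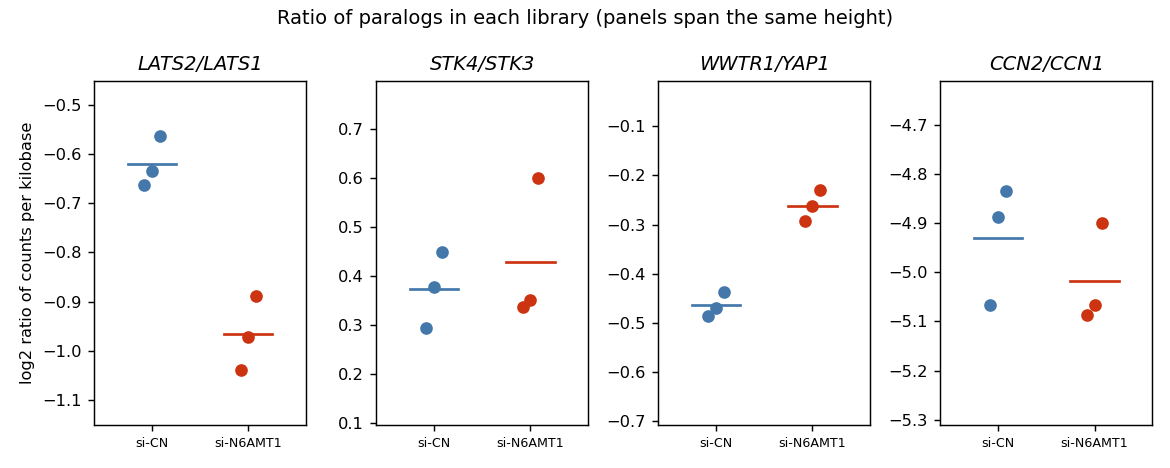
Log2 ratio of counts per kilobase between the paralogs of each pair in each library, with bars at the group means and panels that span the same height. LATS2/LATS1 (difference -0.35) and WWTR1/YAP1 (0.20) separate the groups, whereas STK4/STK3 (0.06) and CCN2/CCN1 (-0.09) overlap.

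Reads of near-identical sequence could be divided wrongly between genes, so windows of 31 bases were compared across all reference transcripts. LATS2 and CCN1 shared 0 of their windows with any other gene, and LATS1 with LATS2, YAP1 with WWTR1, CCN1 with CCN2 and MOB1A with MOB1B shared 0 with each other. STK3 and STK4 had 11 windows in common. SAV1 shared 38.4% of its windows with other genes, most of them with ATL1. The shares of YAP1 and WWTR1 were 11.1% and 11.5%, and their largest partners were the antisense gene ENSG00000254422, which had 0 counts in every library, and WWTR1-AS1, which had 7 to 17 counts. CCN2 shared 8.67%, mostly with LINC01013 on the other strand, and for MOB1A, STK4, LATS1 and STK3 the share was between 3.96% and 5.98%.

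The 3′ UTRs of the Hippo genes were searched on the sense strand for the 7-base sequences TTCACAT and TCACATA, which overlap by 6 bases. An earlier look at these libraries had picked both on their fold changes, so their presence is a description and no independent evidence. LATS2 and YAP1, the genes that were lower, each held 1 match. Of the 6 genes not called, LATS1, MOB1A and CCN2 held 1 match each and STK3, STK4 and WWTR1 held 0. CCN1 and SAV1, the genes that were higher, held 0. Among all tested protein-coding genes with a 3′ UTR of at least 50 bases, 22.5% held a match. The share was 44.2% of those called lower, 19.9% of those not called and 11.9% of those called higher, with no account taken of UTR length. Matches are printed in capitals with the bases around them (GRCh37), since they are the stretches that the lower genes have in common with 3 genes that were not called. They lie at chr13:21548621-21548650 (LATS2, minus strand), chr11:102101236-102101265 (YAP1, plus strand), chr6:149982320-149982349 (LATS1, minus strand), chr2:74383445-74383474 (MOB1A, minus strand) and chr6:132270337-132270366 (CCN2, minus strand).
LATS2: catagcacttaTTCACATttaggaaaagac
YAP1: gctatcattagTCACATAatgaccttgatt
LATS1: aatctgtataaTTCACATcctgaaactaag
MOB1A: tcttgttgttaTCACATAgtcatacttggt
CCN2: acttgaactgaTTCACATctcatttttccg

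Matches began 370 bases into the 3′ UTR of LATS2 (length 1834 bases), 576 bases into that of YAP1 (3484 bases) and 527 bases into that of LATS1 (3576 bases). MOB1A held its match at base 232 of 4040 and CCN2 at base 49 of 1088. Neither the sequence nor the position in the UTR thus separated the lower genes from the genes that were not called.

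TEAD factors bind the sequence GGAATG, which was counted on both strands of RefSeq promoter windows of GRCh38.p14 that reach from 250 bases before to 50 bases after the start site. Windows were matched for 8 of the 10 genes, all but CCN1 and STK3. CCN2 held 3 matches, which began 169, 104 and 95 bases before its start site. YAP1 held 1 match, which began 162 bases before its start site, and LATS2 held 1, which began 9 bases after its start site. LATS1, STK4, SAV1, MOB1A and WWTR1 held 0. A match was present in 14% of all 27305 windows. The matched stretches are shown with the motif in capitals because they place the pathway's own DNA element in 3 of its genes, of which YAP1 and LATS2 were lower and CCN2 was not called. They lie at chr6:131951524-131951553 and chr6:131951455-131951484 (CCN2, minus strand), chr11:102110273-102110302 (YAP1, plus strand) and chr13:21061560-21061589 (LATS2, minus strand).
CCN2, first stretch: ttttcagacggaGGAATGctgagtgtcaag
CCN2, second stretch: ggtggggaGGAATGcgaGGAATGtccctgt
YAP1: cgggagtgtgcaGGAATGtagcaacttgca
LATS2: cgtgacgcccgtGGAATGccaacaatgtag

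A further 86 genes of the pathway, in 5 lists by role, were read from the same fit. Of these, 81 were tested, 22 were lower and 15 were higher, so 45.7% were called against 21.3% of all genes tested. Of the 66 within the range of mean CPM that the 10 genes span, 30 were called (45.5%), against 31.6% of all genes in that range. Their median log2 fold change was -0.00318, close to that of all genes tested (0.00385). No set test was run on these lists.

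Of 26 regulators that act toward the LATS kinases or against YAP1 and WWTR1, 23 were tested, with 7 lower and 4 higher. WWC2, a relative of the LATS activator KIBRA, fell by 0.32 on the log2 scale (FDR = 3.82e-05), with 33.3 to 37.7 CPM in si-N6AMT1 and 42.7 to 46.2 CPM in si-CN libraries. WWC1 and WWC3 were not called (log2 fold changes 0.07 and -0.10). A pair of kinases that can phosphorylate LATS in parallel to STK3 and STK4 also fell, MAP4K5 by 0.29 (FDR = 1.24e-06) and TAOK1 by 0.19 (FDR = 3.09e-05), both on the log2 scale. Related kinases of the list were not called, namely MAP4K2, MAP4K3, MAP4K4, TNIK, TAOK2 and TAOK3. Their log2 fold changes were 0.01, 0.05, 0.01, 0.08, 0.02 and 0.02. BTRC, which marks phosphorylated YAP1 for degradation, fell by 0.22 on the log2 scale (FDR = 0.0198). MINK1, another kinase of the MAP4K family, was higher, with a log2 fold change of 0.20 (FDR = 1.76e-06). The NDR kinases STK38 and STK38L, relatives of the LATS kinases, were higher as well, with log2 fold changes of 0.23 and 0.12 (FDR = 5.15e-05 and 0.00151), as was CSNK1E, with 0.10 (FDR = 0.00601). MOB1B, the paralog of MOB1A, fell by 0.21 on the log2 scale (FDR = 0.000931), whereas MOB1A was not called. NF2, an upstream activator of the cascade, had a log2 fold change of -0.06 and was not called (FDR = 0.202).

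Of 18 inhibitors of the cascade, 4 were lower and 2 higher. STRN, a subunit of the STRIPAK phosphatase complex that acts on STK3 and STK4, fell by 0.16 on the log2 scale (FDR = 0.000485), and SIAH2, a ubiquitin ligase that targets LATS2, fell by 0.14 (FDR = 0.000386). MOB4 and STK24, components of the same complex, fell by 0.13 and 0.08. PDCD10, another STRIPAK gene, was higher, with a log2 fold change of 0.13 (FDR = 0.000806). AJUBA, a LIM protein that binds LATS kinases, had 0.04 and was not called (FDR = 0.353).

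Of 15 genes for phosphoprotein-binding YWHA proteins (with SFN) and for polarity or junction proteins, 5 were lower and 3 higher. YWHAQ fell by 0.20 and YWHAZ by 0.15 on the log2 scale (FDR = 3.83e-07 and 3.97e-06), while SFN was higher, with 0.16 (FDR = 3.01e-06). These genes encode proteins that hold phosphorylated YAP1 in the cytoplasm. CTNNA1, the alpha-catenin of adherens junctions, fell by 0.18 on the log2 scale (FDR = 1.09e-06), and the polarity gene PATJ fell by 0.17 (FDR = 0.000504). SCRIB, another polarity gene, and YWHAG were higher by little, with log2 fold changes of 0.11 (FDR = 0.0334) and 0.06 (FDR = 0.0432).

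Of 8 TEAD and VGLL genes, 6 were tested, with 3 lower and 1 higher. TEAD1, the most abundant TEAD gene at 77.3 TPM in si-CN, had 316.1, 330.0 and 335.2 CPM in si-CN and 306.5, 279.7 and 286.6 CPM in si-N6AMT1 libraries (log2 fold change -0.17, FDR = 0.000152). TEAD2 fell by 0.27 on the log2 scale (FDR = 0.00177). TEAD3 and TEAD4 had log2 fold changes of 0.02 and 0.11 and were not called (FDR = 0.861 and 0.0628), though TEAD4 passed without replicate 1 of si-CN (FDR = 0.0314) or of si-N6AMT1 (FDR = 0.0438). Of the cofactors that compete with YAP1 for TEAD binding, VGLL3 fell by 0.25 on the log2 scale (FDR = 0.0135) and VGLL4 was higher, with 0.10 (FDR = 0.0413) and overlapping groups.

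Of 19 other target genes of YAP1 and WWTR1, all tested, 3 were lower and 5 higher. The largest change was in F3, the gene of tissue factor, with 1089, 1076 and 1091 CPM in si-CN and 1482, 1490 and 1474 CPM in si-N6AMT1 libraries (log2 fold change 0.45, FDR = 9.23e-14). FJX1 and AMOTL2 were higher, with log2 fold changes of 0.32 (FDR = 0.00136) and 0.24 (FDR = 1.77e-07), and AMOTL2, which encodes a YAP1-binding angiomotin, had 257.5 to 269.9 CPM in si-N6AMT1 against 220.6 to 226.7 CPM in si-CN libraries. NUAK2 and DOCK5 were higher by less, with 0.15 and 0.12. AXL, a receptor tyrosine kinase, fell by 0.23 on the log2 scale (FDR = 1.15e-06), ASAP1 by 0.19 and PTPN14, whose product restrains YAP1, by 0.15. ANKRD1, a much used YAP1 target, had a log2 fold change of 0.07 and was not called (FDR = 0.182). The median over the 19 genes was 0.07. Target genes thus moved both ways, as CCN1 and LATS2 did among the 10 listed genes. Of the called genes named in the 5 lists, YWHAG lost its call under 11 of 14 alternatives and MOB4 under 10. BTRC, SCRIB, VGLL4 and NUAK2 lost theirs under 6 each, STK24 under 5, VGLL3 under 4 and CSNK1E under 1.

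**Figure D5:**
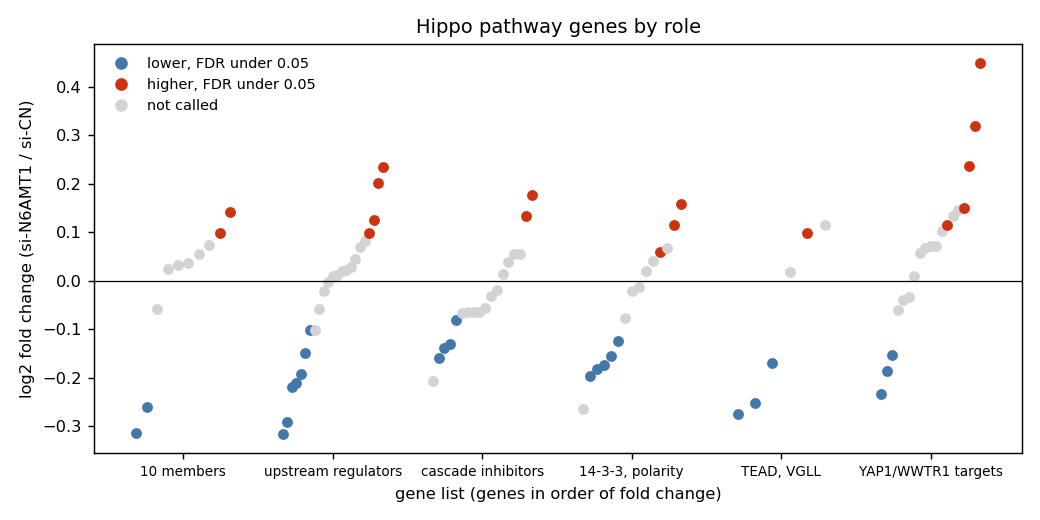
Log2 fold change in si-N6AMT1 against si-CN of the tested genes of the Hippo pathway by role, each list in order of fold change, with genes called lower in blue, called higher in red and not called in grey (FDR under 0.05, edgeR). Each list holds both lower and higher genes, and the highest point is F3 (0.45) among the targets of YAP1 and WWTR1.

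The 3′ UTR sequences described for LATS2 and YAP1 were also counted in these lists. Of the 22 pathway genes called lower, 13 held TTCACAT or TCACATA, among them WWC2, MAP4K5, MOB1B, TEAD1, VGLL3, YWHAQ and AXL. Of the 44 not called, 10 held a match, and of the 15 called higher, 1 did, DOCK5. These shares of 59.1%, 22.7% and 6.67% stand beside the 44.2%, 19.9% and 11.9% given for all tested protein-coding genes. No test was run between them, and none of these shares takes account of the length of the 3′ UTR, which differs between the sets. Among the pathway genes it ran from 729 (TEAD2) to 11758 bases (STRN) in those called lower. In those called higher it ran from 238 (SCRIB) to 4413 bases (DOCK5), and in those not called from 198 to 12035 bases. The part of UTR length in these shares was not tested.

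Over the 6 libraries, the genes whose log2 CPM was most like that of LATS2 among 17319 genes were LMTK2, OSBPL11 and BLM, with Pearson's r of 0.999, 0.999 and 0.997. LMTK2 and OSBPL11 were called lower (log2 fold changes -0.13 and -0.29, FDR = 0.0136 and 4.88e-05), LMTK2 not so under 4 of 14 alternatives, and BLM was not (-0.15, FDR = 0.0509). With 6 libraries in 2 groups, and with the same library sizes behind every gene, values this high describe a shared pattern only.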

How the data were processed

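Per the paper's methods, the authors trimmed paired-end reads with Trim Galore, quantified transcripts of GENCODE v33 (hg19) with kallisto v0.46.0 and added them up by gene. What they deposited are estimated counts (expected counts), whole numbers for 62438 genes that carry no normalization. Libraries came from a stranded mRNA kit, but whether kallisto used strand is not given in the sources used here, so it is not known whether reads of genes that overlap on opposite strands were separated. Symbols, positions, lengths and sequences came from GENCODE v44 on GRCh37, and TPM was estimated from the length of the reference transcript.

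The quasi-likelihood test of edgeR (v4.0.16, R v4.3.3) was fitted to all 6 libraries after TMM scaling and its expression filter with a minimum count of 10, with no covariate. P-values were adjusted by Benjamini-Hochberg across the 17320 genes that remained (FDR). A standard error is the log2 fold change, without sign, over the root of its F value. Library pairs of a group differed by more than counting noise (chi-square per degree of freedom 1.37 to 1.77), so all 6 libraries were kept. The procedure was tested on simulated counts, but the setting and outcome are not reported here, so that run lends no weight to the calls.

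The 10 genes and all lists were chosen with earlier results of these data known. Genes named beside the 10 followed a rule: the targeted gene, markers, genes overlapping a member, called genes of each list (above 6, the 4 with the largest changes in each direction), the TEAD and VGLL genes tested, and the 3 genes most like LATS2. NF2, TAOK1, AJUBA, DOCK5 and ANKRD1 were named after their values were seen. So were WWC1, WWC3, MAP4K2, MAP4K3, MAP4K4, TNIK, TAOK2, TAOK3, MOB3A, MOB3B and MOB3C, for which no alternatives are given. A few genes that the rule names are not reported here, though counts and sums over lists include them. Alternatives were RLE scaling, no filter, a minimum of 1 estimated TPM, DESeq2 v1.42.0, limma-voom (limma v3.58.1), the replicate number as a block (alone or with GC correction), and leaving out each of the libraries. DESeq2 on the genes that edgeR tested, and all alternatives for the genes named beside the 10, were added after the data had been seen.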

Additional observations from a re-analysis of the deposited data

How the results depend on the processing

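LATS2, YAP1 and CCN1 kept their call and direction under all 14 alternatives, with log2 fold changes of -0.35 to -0.27, -0.28 to -0.24 and 0.13 to 0.15. DESeq2 on all 39446 genes with a count called 1136 genes lower and 796 higher, against 1993 and 1694 in edgeR, and DESeq2 on the 17320 genes that edgeR tested called 1275 and 955. Under either, 1 of the Hippo genes was higher in place of 2, the lost one being SAV1, and of the other pathway genes 16 were lower and 10 higher, against 22 and 15. The cause was not tested. Of 39 called genes named beside the 10, 27 kept their call under all 14 alternatives, and 12 lost it under at least 1, at most 11 of them under a single alternative. None of the 39 changed direction. With each library left out in turn, 1 to 2 Hippo genes were higher, the log2 STK4/STK3 ratio differed by -0.03 to 0.10, and the log2 fold changes of STK3 (-0.0116 to 0.0942), CCN2 (-0.00704 to 0.112), TEAD3 (-0.0225 to 0.0455) and CCN4 (-0.0161 to 0.256) changed sign, so none of these 4 genes has a direction here. TEAD3 was also at -0.0169 under the replicate block with GC correction. Without si-N6AMT1 replicate 1 the STK4/STK3 difference was -0.03 in place of 0.06. Replicate numbers did not pair the libraries (correlations of same-numbered deviations -0.0422 to 0.00997). With the replicate block 1804 genes were lower and 1522 higher, with 2 Hippo genes in each direction, and the block changed no call among the 10, with or without GC correction. Counts of 183 to 216 for CCN2 and 350 to 472 for LATS2 limit their precision. Among the 10, STK4 passed the threshold without si-CN replicate 2.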

Other observations

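Families of the Hippo genes beyond the lists above were read from the same edgeR fit, chosen after the 10 genes had been seen. Of the other CCN genes, CCN5 was lower, with 185 to 213 counts in si-CN and 130 to 167 counts in si-N6AMT1 libraries (log2 fold change -0.46, FDR = 0.00187), whereas CCN3 (-0.11, FDR = 0.313) and CCN4 (0.14, FDR = 0.740) were not called and CCN6 was below the expression filter. Among MOB genes that are not LATS activators, MOB2, which binds NDR kinases, was higher (log2 fold change 0.22, FDR = 0.0298). MOB3A (0.04, FDR = 0.438), MOB3B (-0.003, FDR = 0.975) and MOB3C (-0.06, FDR = 0.538) were not called. Of RASSF genes, a family of which some members bind STK3 and STK4, RASSF8 was lower (log2 fold change -0.20, FDR = 0.000109) and RASSF7 higher (0.17, FDR = 0.0480), while RASSF3, RASSF4, RASSF5, RASSF6, RASSF9 and RASSF10 were not called. MOB2 and RASSF7 lost their call under 8 and 9 of 14 alternatives, and CCN5 and RASSF8 kept theirs under all 14.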
